A study of Mus musculus with 9 samples.

Results

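The comparison described here set 3 libraries of dorsal root ganglion (DRG) neurons against 3 libraries of oligodendrocyte precursor cells (OPC), which are 6 of the 9 mouse RNA-seq libraries of a study of nucleosome spacing in neurons and glia. The other 3 libraries, from cortical astrocytes of mice aged P1 to P3 cultured for 21 days, entered the fit but not the comparison. They added to the estimate of the spread between replicates, and also took part in the choice of genes tested and in the scaling. The groups were taken from the sample labels, and no measured value chose them. DRG neurons came from ganglia of mouse embryos at E13.5 and had been in culture for about 2 weeks. OPC came from the cortex of pups aged P6 to P9, of either sex, and had been cultured for 6 to 7 days. No genetic change or drug treatment is named for either group, and no strain, litter, date or sequencing lane is given. Donor age, tissue of origin, length of culture and cell type change together between the groups, so their parts in any difference cannot be told apart. The replicates were described as separate biological experiments.

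DRG neurons are the sensory neurons of the body wall and limbs: postmitotic cells with long axons that carry touch, heat, itch and pain signals to the spinal cord. OPC are the dividing glial cells of the central nervous system from which myelinating oligodendrocytes form. They are known for receptors for growth factors, a coat of chondroitin sulfate proteoglycans, and continued cycling in culture when mitogens are present.

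Each library held between 30710093 and 53594210 counts assigned to transcripts, out of 57840251 to 93305766 reads in the files, and 22.1% to 24.7% of the reads were ambiguous between transcripts. Libraries of one group correlated at 0.9655 to 0.987 across genes on the log2 scale, and libraries of different groups at 0.741 to 0.7651. Levels are given as CPM, a gene's counts scaled to a common library total, with library sizes adjusted by the trimmed mean of M-values (TMM), always in the order of replicates 1, 2 and 3. A log2 value is DRG neurons minus OPC, and "higher" and "lower" mean in DRG neurons relative to OPC with a Benjamini-Hochberg adjusted p under 0.05 in edgeR's quasi-likelihood test over all 14850 genes tested. The SE beside a log2 value was worked back from the test statistic and does not come directly from the fit. OPC replicate 3 was short of long transcripts: its median log2 ratio to the mean of the other 2 OPC libraries went from 0.29 in the shortest of 4 equal groups of genes by transcript length to −0.32 in the longest. It also held more microglial RNA than the others, with the 14 tested microglia markers summing to 22.1, 13.3 and 12.99 CPM in DRG neurons and 20.2, 66.96 and 234 in OPC. For every gene but Piezo1 that passed the test and whose value is printed for each library below, the 3 DRG libraries did not overlap the 3 OPC libraries. The groups also did not overlap for 10014 of all 14850 genes tested (67.4%), and a large difference was among the reasons for naming a gene. Genes with more than 1 transcript accession kept only the reads that are specific to one isoform, because reads shared by isoforms were ambiguous. Among the genes named below these are Adam22, Cacna1b, Cdkn1a, Chpf, Cryab, Dcn, Dcx, Dnajc5, Dnm2, Dut, Gapdh, Kcnd3, Lmna, Map2, Ndrg4, Ntrk2, Ntrk3, Orc2, Pdgfrb, Postn, Rpl22, Rps24, Sorcs1, Sqstm1, Srsf9 and Yap1. In bulk RNA, fewer cells of a type and less RNA per cell cannot be told apart.

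Of the 14850 genes tested, 4217 (28.4%) were higher in DRG neurons and 4617 (31.1%) were lower, 59.5% in all. With a fold change of at least 2 as well, the counts were 3708 and 3692. The median log2 value over all genes was −0.08. That median moved to 0.09 with DESeq2 size factors and to −0.23 with library size alone, and 47.7% of calls were higher against 53.8% and 43.2%, so small differences below depend on the scaling. The 655 long noncoding RNAs tested were called about as often as other genes, with 26.3% higher and 28.1% lower. Long genes were higher more often: of 4 equal groups by the length of the gene body, 33.3% of the longest were higher, against 25.1% of the shortest. The 28.4% and 31.1% over all genes are the background for the counts of each of the 82 lists of pathways and gene classes.

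**Figure D1:**
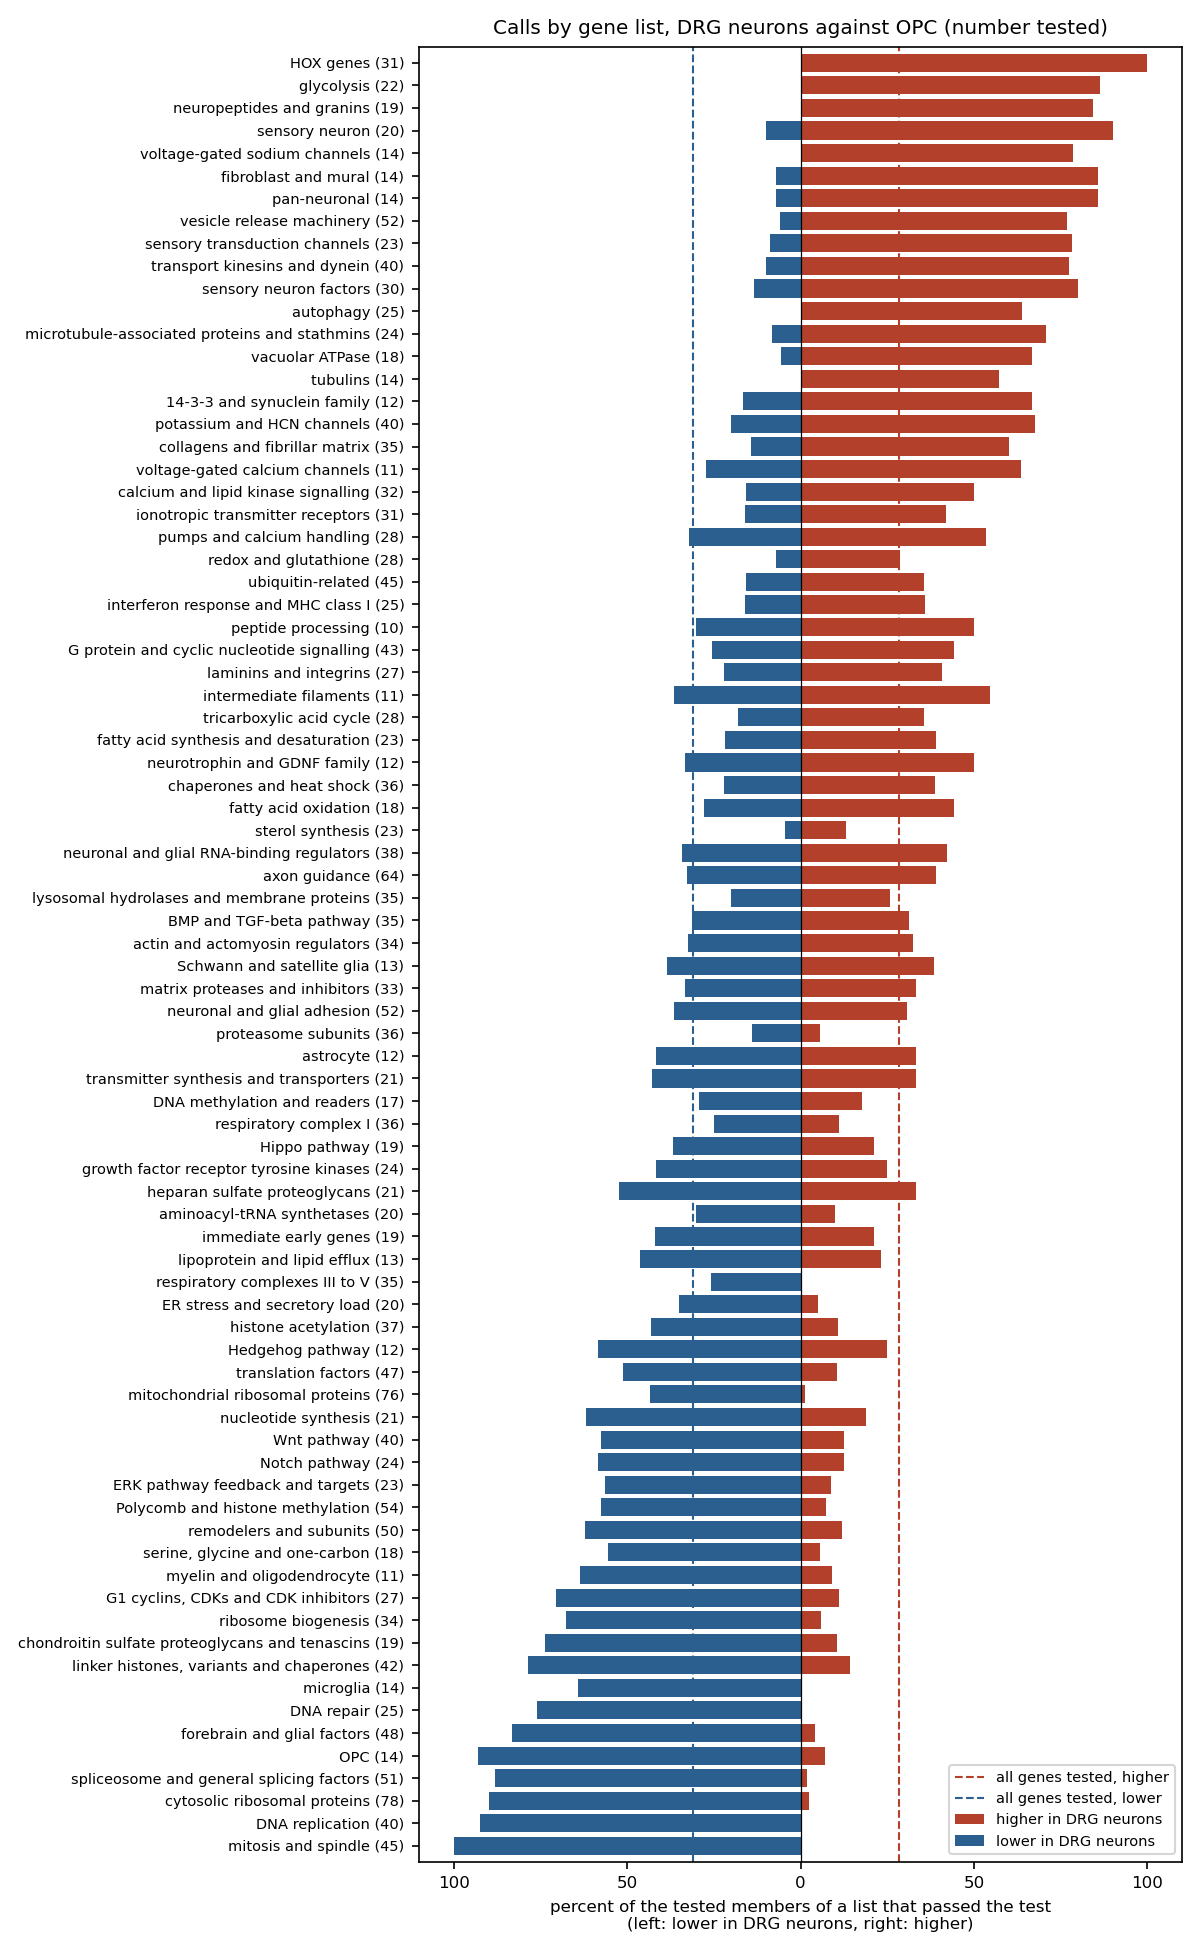
Percent of tested members of each gene list that were higher (right) or lower (left) in DRG neurons than in OPC, for lists with at least 10 tested members; dashed lines mark the 28.4% and 31.1% of all genes. Cell division, ribosomal protein and splicing lists reach far to the left, and HOX, glycolysis, neuropeptide, vesicle release and sodium channel lists far to the right.

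Most of the listed markers matched the labels. Of 14 pan-neuronal markers tested, 12 were higher, and of 20 sensory neuron markers, 18. Among the pan-neuronal markers, Map2 was lower and Ina did not pass. The value of Map2 compares isoform-specific reads only. Of the 11 pan-neuronal markers without that limit, 10 were higher and none lower. Of 14 OPC markers, 13 were lower. The pan-neuronal markers summed to 60842, 39801 and 43373 CPM in DRG neurons and 925, 1037 and 1079 in OPC. Avil, advillin, an actin-binding protein of sensory neurons, stood at 1728, 2673 and 2225 CPM in DRG neurons and 0.894, 2.95 and 1.73 in OPC (log2 10.21, SE 0.83, adjusted p = 1.51e-05). Olig2, the factor that defines the oligodendrocyte lineage, stood at 1234, 1285 and 1463 CPM in OPC and 0, 0.463 and 0.361 CPM in DRG neurons. Both genes were low in the other cell type. Ntrk2 and Ntrk3, neurotrophin receptors that mark subsets of sensory neurons, went the other way. Their values compare isoform-specific reads only, and all 14 sensory neuron markers without that limit were higher. Ntrk2 stood at 1.12, 0.379 and 1.47 CPM in DRG neurons and 441, 249 and 236 in OPC and Ntrk3 at 14.7, 32.1 and 17.3 CPM in DRG neurons and 93.9, 69.5 and 75.2 in OPC. Markers of other cells were mixed: of 12 astrocyte markers 4 were higher (2 without DRG replicate 1 or OPC replicate 2) and 5 lower. Of the 14 microglia markers, none was higher and 9 were lower, and without OPC replicate 3, which had the most microglial RNA, 2 were higher and 2 lower (2 and 6 when the compared libraries were fitted alone).

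Genes of cell division were lower in DRG neurons almost throughout. Of 40 genes of DNA replication tested, 37 were lower in DRG neurons and none higher, with a median log2 of −3.84, and of 45 genes of mitosis and the spindle all 45 were lower, with a median of −6.67 (−6.36 when genes with no counts in DRG neurons are set to their bound). Mcm5, a subunit of the replicative helicase, stood at 244, 421 and 439 CPM in OPC and 2.88, 2.02 and 2.01 CPM in DRG neurons (log2 −7.32, SE 0.68, adjusted p = 2.82e-05). Rrm2, the ribonucleotide reductase subunit that supplies deoxynucleotides, stood at 322, 692 and 529.98 CPM in OPC and 2.81, 0.905 and 1.29 CPM in DRG neurons (log2 −8.29, SE 0.94, adjusted p = 8.27e-05). OPC replicate 1 was the lowest OPC library for both. Pcna, the sliding clamp, which is also used in DNA repair, was less far apart, at 554, 828 and 769.6 CPM in OPC and 45.8, 51.7 and 58.96 CPM in DRG neurons (log2 −3.78, SE 0.31, adjusted p = 1.57e-05). The 3 replication genes that did not pass were Orc2 (log2 −0.55), Rfc1 (log2 −0.70) and Dut (log2 −1.28), and Rfc1 passed as lower without OPC replicate 3 (log2 −0.74, adjusted p = 0.00977).

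The promoters of these genes are shown because the replication and mitosis lists are each known for a promoter element: sites of the E2F factors in replication genes, and the cell cycle genes homology region (CHR) with CCAAT boxes in mitosis genes. The letters are the 120 bases before the RefSeq start on GRCm38.p6, on the gene's strand, in capitals where they match TTTCCCGC, TTTGGCGC, TTTCGCGC or TTTGCCGC on either strand (E2F) in the first pair, and TTTGAA (CHR) or CCAAT on either strand in the other 4. Mcm6 (chr1:128359706-128359825, minus strand) has a pair of overlapping matches near the far end of the letters shown and another match 40 to 47 bases before the start. Orc1 is at chr4:108579334-108579453, plus strand, Cdk1 at chr10:69352913-69353032, minus strand, Kif11 at chr19:37376262-37376381, plus strand, Top2a at chr11:99024190-99024309, minus strand and Ube2c at chr2:164769809-164769928, plus strand.
Mcm6: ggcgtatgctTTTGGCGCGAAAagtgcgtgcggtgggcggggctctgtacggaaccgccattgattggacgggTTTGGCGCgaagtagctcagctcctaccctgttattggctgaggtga
Orc1: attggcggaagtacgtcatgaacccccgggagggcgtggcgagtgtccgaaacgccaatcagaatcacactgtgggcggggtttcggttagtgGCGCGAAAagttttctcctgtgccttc
Cdk1: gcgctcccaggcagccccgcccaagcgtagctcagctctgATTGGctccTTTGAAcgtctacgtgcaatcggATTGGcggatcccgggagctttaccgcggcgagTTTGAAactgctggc
Kif11: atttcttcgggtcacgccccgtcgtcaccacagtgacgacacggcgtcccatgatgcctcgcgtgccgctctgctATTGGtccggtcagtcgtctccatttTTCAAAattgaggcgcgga
Top2a: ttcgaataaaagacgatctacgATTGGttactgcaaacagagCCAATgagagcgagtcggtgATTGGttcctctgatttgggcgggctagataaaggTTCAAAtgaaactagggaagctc
Ube2c: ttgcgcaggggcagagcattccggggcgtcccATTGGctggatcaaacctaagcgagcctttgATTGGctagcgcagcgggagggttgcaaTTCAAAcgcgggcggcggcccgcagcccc
In the 250 bases before the start, an E2F match was present for 8 of 32 replication genes with a promoter in the table (25%), against 3.61% of all 11649 tested genes with one. A CHR match was present for 15 of 37 mitosis genes (40.5%), against 12.7%, and a CCAAT match for 28 of 37 (75.7%), against 39.9%. CCAAT was also common in the replication list, in 20 of 32 genes (62.5%), where CHR was in 5 (15.6%), and E2F was in 2 of the 37 mitosis genes (5.41%). In Orc1 the E2F match ends 20 bases before the start, and in Cdk1 the nearest CHR match ends 10 bases before it. A match is a description of letters and was not tested as a binding site, and the genes shown were chosen after their matches were seen.

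The genes whose promoters are printed differed as their lists did. Mcm6, another helicase subunit, stood at 275, 482 and 398 CPM in OPC and 23.04, 14.7 and 13.2 CPM in DRG neurons (log2 −4.50, SE 0.45, adjusted p = 4.38e-05). Orc1, of the origin recognition complex, stood at 10.3, 17.9 and 13.1 CPM in OPC and 0.677, 0.632 and 0.490 CPM in DRG neurons (log2 −4.52, SE 0.68, adjusted p = 0.000438). Cdk1, the kinase that drives entry into mitosis, stood at 242, 399 and 426 CPM in OPC and 0.880, 2.53 and 1.37 CPM in DRG neurons (log2 −7.78, SE 0.76, adjusted p = 3.58e-05). Kif11, the motor that separates the spindle poles, stood at 274, 465 and 136 CPM in OPC and 3.62, 2.93 and 4.08 CPM in DRG neurons (log2 −6.36, SE 0.63, adjusted p = 3.84e-05). Top2a, the topoisomerase of dividing cells, stood at 1069.7, 1571 and 530.5 CPM in OPC and 2.64, 2.82 and 1.78 CPM in DRG neurons (log2 −8.77, SE 0.96, adjusted p = 7.08e-05). Ube2c, of the anaphase-promoting complex pathway, stood at 177, 304 and 312 CPM in OPC and 2.10, 0.758 and 0.490 CPM in DRG neurons (log2 −7.92, SE 1.04, adjusted p = 0.000193, and log2 −8.71 without DRG replicate 1). OPC replicate 1 was the lowest OPC library for Mcm6, Orc1, Cdk1 and Ube2c, and OPC replicate 3, the library short of long transcripts, was the lowest for Kif11 and Top2a. The replication genes summed to 427, 459.9 and 424 CPM in DRG neurons and 4268, 7048 and 6059.5 in OPC.

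Genes that govern entry into the cycle were less uniform. Of 27 cyclins, kinases, inhibitors and E2F factors of the G1 phase, 19 were lower and 3 higher. Ccnd1, cyclin D1, stood at 1505, 2796 and 3184 CPM in OPC and 55.2, 26.8 and 73.5 CPM in DRG neurons (log2 −5.59, SE 0.51, adjusted p = 2.60e-05), with OPC replicate 1 the lowest of the OPC libraries. Its partner Cdk4 stood at 952, 937 and 1254 CPM in OPC and 57.7, 44.9 and 51.7 CPM in DRG neurons (log2 −4.35, SE 0.27, adjusted p = 4.41e-06). The inhibitor Cdkn2c was also lower, at 72.5, 84.3 and 87.99 CPM in OPC and 0.338, 0.674 and 0.310 CPM in DRG neurons (log2 −7.49, SE 0.43, adjusted p = 3.42e-06), whereas Cdkn1b, known for holding neurons out of the cycle, was lower by less (log2 −1.37). The 3 higher members were Cdk5 (log2 1.65) and its activator Cdk5r2 (log2 3.95), a kinase pair known for work in neurons outside the cycle, and Cdkn1a (log2 0.89), whose call was lost without any 1 of DRG replicates 1 or 2 or OPC replicates 1 or 2 (log2 0.68, adjusted p = 0.148 without DRG replicate 1, log2 0.91, adjusted p = 0.0896 without DRG replicate 2, log2 0.60, adjusted p = 0.106 without OPC replicate 1 and log2 0.86, adjusted p = 0.114 without OPC replicate 2). Its value without OPC replicate 3 was log2 1.52. Of 25 DNA repair genes, 19 were lower and none higher. Among the larger differences were those in crosslink repair and end resection, as in Fancd2 at 44.4, 73.6 and 49.5 CPM in OPC and 0.372, 0.505 and 0.439 CPM in DRG neurons (log2 −6.97, SE 0.76, adjusted p = 6.80e-05). Exo1 stood at 46.99, 83.9 and 49.8 CPM in OPC and 1.05, 0.653 and 0.439 CPM in DRG neurons (log2 −6.41, SE 0.86, adjusted p = 0.000215). End joining genes were nearer: Prkdc was log2 0.92 and Lig4 log2 0.32, neither past the threshold, although Prkdc passed as higher without OPC replicate 1 (log2 1.16, adjusted p = 0.0453) or OPC replicate 3 (log2 0.80, adjusted p = 0.00441).

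Chromatin genes followed in part. Of 42 linker histones, histone variants, high mobility group proteins and histone chaperones, 33 were lower and 6 higher. Hmgn2, a nucleosome-binding protein, stood at 1113, 1837 and 1870.2 CPM in OPC and 35.8, 20.6 and 23.03 CPM in DRG neurons (log2 −5.92, SE 0.45, adjusted p = 1.20e-05). Hmgb2 stood at 679, 1139 and 975 CPM in OPC and 5.65, 5.14 and 2.68 CPM in DRG neurons (log2 −7.70, SE 0.50, adjusted p = 5.83e-06). Nap1l2 and Nap1l3, nucleosome assembly proteins known from neurons, were higher, Nap1l2 at 208, 235 and 266 CPM in DRG neurons and 28.97, 27.9 and 16.8 in OPC and Nap1l3 at 96.001, 95.6 and 89.2 CPM in DRG neurons and 24.3, 18.6 and 9.38 in OPC. Of 54 Polycomb and histone methylation genes, 31 were lower and 4 higher, and of 50 remodeler subunits 31 and 6. Actl6b and Actl6a are alternative subunits of the BAF remodeling complex in neurons and in progenitors. Actl6b stood at 54.99, 41.5 and 44.02 CPM in DRG neurons and 2.46, 2.75 and 2.60 in OPC and Actl6a at 15.6, 20.2 and 24.3 CPM in DRG neurons and 122, 169 and 177 in OPC. Ezh1 was higher (log2 2.08) where Cbx3 (log2 −2.58) and Bmi1 (log2 −2.59) were lower.

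**Figure D2:**
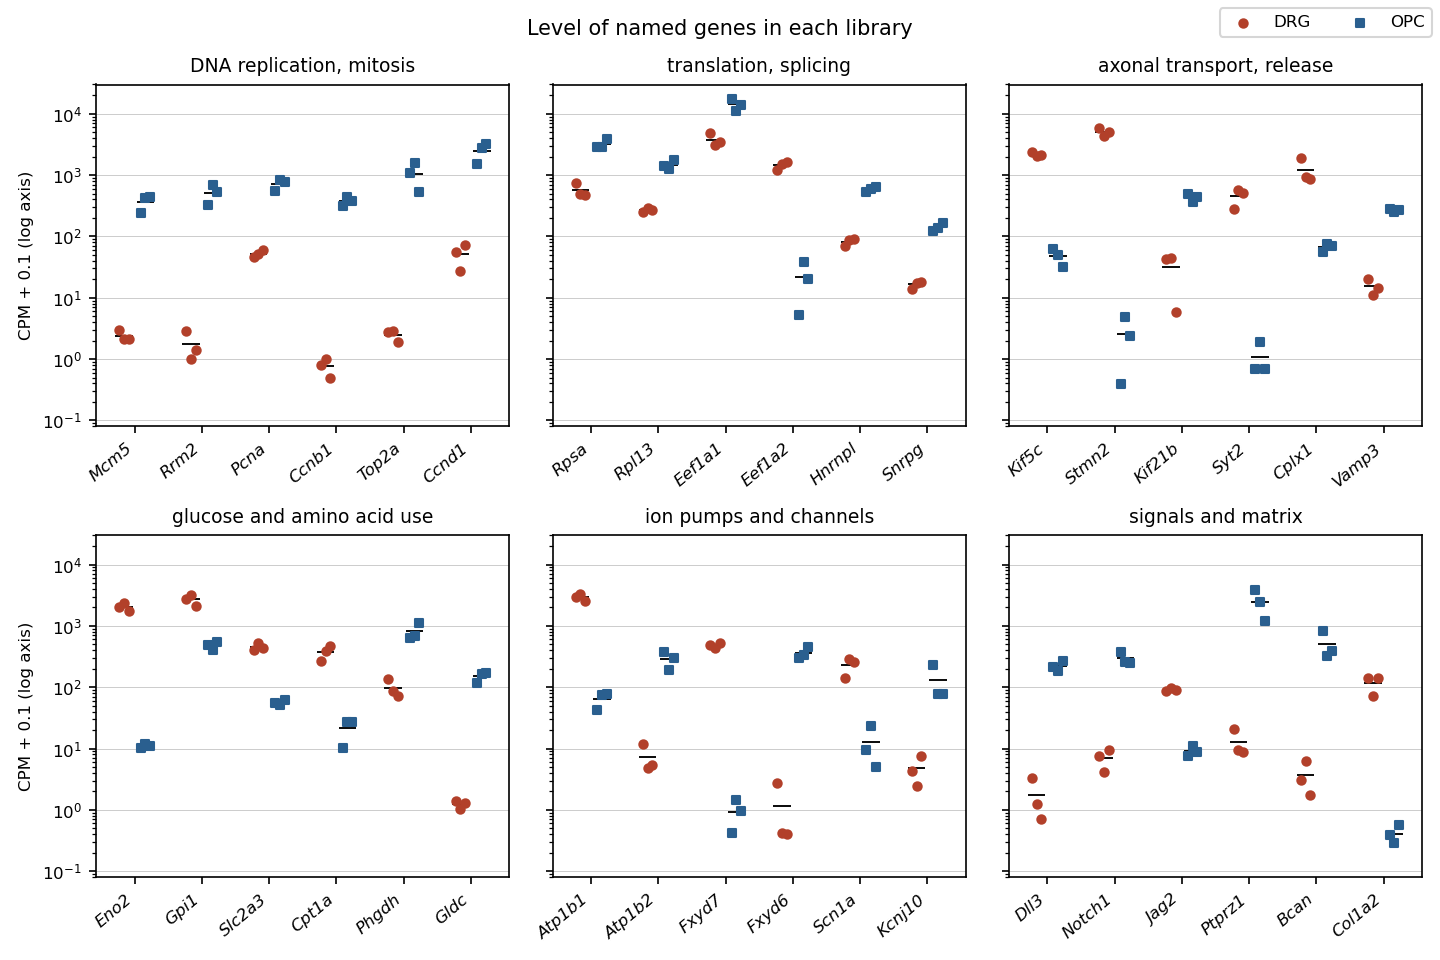
Level of 36 genes in each of the 6 libraries, in CPM plus 0.1 on a log axis, in 6 panels by function; each point is a library and each line a group mean. All genes of the first panel sit higher in OPC. Eef1a1 and Eef1a2 sit on opposite sides, as do Atp1b1 and Atp1b2, Fxyd7 and Fxyd6, and Dll3 and Jag2. No gene shown overlaps between the groups, nor do 67.4% of all genes tested.

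The translation machinery was mostly lower in DRG neurons. Of 78 cytosolic ribosomal protein genes, 70 were lower and 2 higher, with a median log2 of −1.83. Of the 67 with 1 accession, which lose no reads to sister transcripts, 66 were lower and none higher. The 2 that were higher, Rps24 and Rpl22, have more than 1 accession, so their values compare isoform-specific reads. Rpsa, of the small subunit, stood at 2923, 2869.5 and 3928 CPM in OPC and 737, 486 and 471 CPM in DRG neurons (log2 −2.52, SE 0.31, adjusted p = 0.000132). Rpl13, of the large subunit, stood at 1414, 1235 and 1778 CPM in OPC and 255, 286 and 268 CPM in DRG neurons (log2 −2.45, SE 0.22, adjusted p = 2.46e-05). The DRG libraries lay at a fraction of the OPC level for both subunits. These are short transcripts, and without OPC replicate 3 the list had 67 lower and a median of −1.46. The 76 mitochondrial ribosomal genes did not move as far: 33 were lower and 1, Mrpl38, higher (log2 0.56), with a median of −0.43, and without OPC replicate 3 the counts were 15 lower and 7 higher. Mrpl38 did not pass when any of DRG replicates 1 to 3 or OPC replicates 1 or 2 was left out, with the highest adjusted p without OPC replicate 1 (log2 0.40, adjusted p = 0.0833).

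Elongation factor 1 alpha showed the muscle and neuron form against the general one. Eef1a2 stood at 1227, 1524 and 1622 CPM in DRG neurons and 5.21, 38.5 and 20.5 in OPC (log2 6.09, SE 0.85, adjusted p = 0.000276), and log2 6.82 without OPC replicate 2. Eef1a1 stood at 4829, 3055 and 3513 CPM in DRG neurons and 17459, 11176 and 13996 in OPC (log2 −1.90, SE 0.26, adjusted p = 0.000268). Of 47 translation factors, 24 were lower and 5 higher, falling to 17 lower without OPC replicate 3. Eif4ebp2, a repressor of cap-dependent initiation, was among the lower, at 165, 188 and 211 CPM in OPC and 11.2, 15.8 and 15.2 CPM in DRG neurons (log2 −3.74, SE 0.20, adjusted p = 2.68e-06). Of 34 genes of ribosome biogenesis, 23 were lower, as in Fbl, the methyltransferase fibrillarin (log2 −2.41), and Mycn (log2 1.46) and Rrp12 (log2 1.20) were higher. Splicing genes behaved alike: of 51 spliceosome components and general splicing factors, 45 were lower and 1 higher, with a median of −1.64. Hnrnpl stood at 526, 583 and 628 CPM in OPC and 69.3, 86.2 and 90.6 CPM in DRG neurons (log2 −2.82, SE 0.21, adjusted p = 1.07e-05). Snrpg, a core protein of the spliceosomal particles, stood at 124, 136 and 167 CPM in OPC and 14.01, 17.2 and 18.1 CPM in DRG neurons (log2 −3.11, SE 0.19, adjusted p = 3.86e-06). The 1 higher was Srsf9, at 0.305, 0.611 and 1.24 CPM in DRG neurons and 0.201, 0.285 and 0.289 in OPC. Its call was lost without DRG replicate 2 or 3 or OPC replicate 1 or 2, with the highest adjusted p without DRG replicate 3 (log2 0.84, adjusted p = 0.194).

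**Figure D3:**
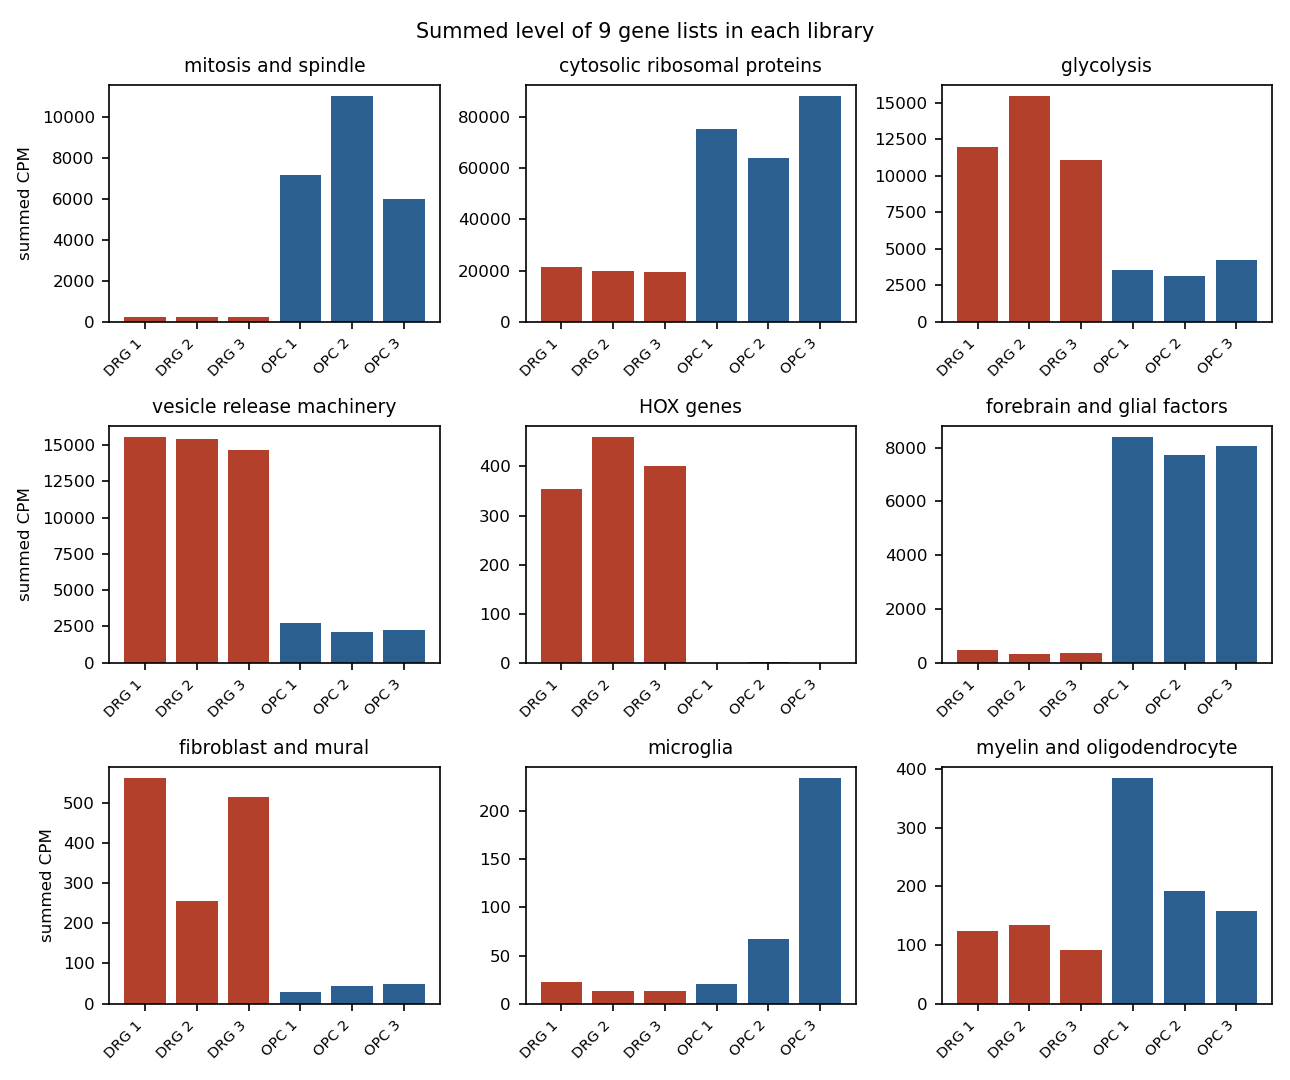
Summed level in CPM of the members of 9 gene lists in each of the 6 libraries, as 1 bar per library, red for DRG neurons and blue for OPC. The groups do not overlap in any panel but the microglia one, where OPC replicate 3 is far above the other 5 libraries, and OPC replicate 1 has the tallest bar for myelin genes.

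The axonal cytoskeleton and its motors were higher. Of 40 transport kinesins and dynein or dynactin parts, 31 were higher and 4 lower, and of 24 microtubule-associated proteins 17 and 2 (1 lower when any library but DRG replicate 1 was left out). The 2 lower microtubule-associated genes were Map2 and Dcx, whose values compare isoform-specific reads only. Kif5c, a neuronal heavy chain of conventional kinesin, stood at 2420.4, 2034 and 2093 CPM in DRG neurons and 62.4, 49.5 and 31.3 in OPC (log2 5.51, SE 0.34, adjusted p = 4.41e-06). Dync1h1, the heavy chain of cytoplasmic dynein, stood at 3667, 4498 and 4282 CPM in DRG neurons and 1023, 797 and 794 in OPC (log2 2.25, SE 0.21, adjusted p = 2.94e-05). Motors of both directions along the axon were thus higher. The motors that went the other way were Kif21b at 42.7, 45.1 and 5.86 CPM in DRG neurons and 497, 365 and 443 in OPC (log2 −3.80, SE 0.66, adjusted p = 0.00094), with DRG replicate 3 well below the other DRG libraries, and Kif1c (log2 −2.92), Kif13a (log2 −2.31) and Kif26a (log2 −1.12). The Kif26a call was lost when any library but OPC replicate 3 was left out, with the highest adjusted p without OPC replicate 2 (log2 −0.73, adjusted p = 0.158).

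Of 14 tubulins, 8 were higher and none lower. Tuba4a, an alpha tubulin of mature neurons, stood at 432, 622 and 679 CPM in DRG neurons and 1.05, 1.83 and 1.90 in OPC (log2 8.50, SE 0.50, adjusted p = 3.63e-06). Tubb4a stood at 1375, 1235 and 1312 CPM in DRG neurons and 144, 91.95 and 114 in OPC (log2 3.48, SE 0.41, adjusted p = 9.95e-05). Tubb5, a beta tubulin used by dividing cells, was 4141, 3159.5 and 2799 CPM in DRG neurons against 2607, 3571 and 4036 in OPC (log2 −0.02, adjusted p = 0.971). Map1b, which binds axonal microtubules, stood at 7713, 10547 and 12757 CPM in DRG neurons and 157, 252 and 135 in OPC (log2 5.83, SE 0.47, adjusted p = 1.35e-05). Map7d2 stood at 968, 2748 and 3208 CPM in DRG neurons and 66.998, 44.7 and 31.2 in OPC (log2 5.60, SE 0.56, adjusted p = 4.42e-05). The stathmins, which sequester tubulin, split: Stmn2 stood at 5779, 4376 and 4963 CPM in DRG neurons and 0.291, 4.72 and 2.24 in OPC (log2 11.02, and log2 11.96 without OPC replicate 2), Stmn3 (log2 2.22) and Stmn4 (log2 3.36) were higher, and Stmn1 was log2 −0.21 (adjusted p = 0.719).

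Of 11 intermediate filament genes, 6 were higher and 4 lower. Neurofilament heavy and light chains were higher, at 3683, 6380.2 and 6784 CPM in DRG neurons and 1.12, 5.31 and 1.40 in OPC for Nefh and 15666, 7381 and 8486 CPM in DRG neurons and 19.7, 27.3 and 20.1 in OPC for Nefl. DRG replicate 1 was the lowest DRG library for Nefh and the highest for Nefl. Nefh was log2 11.06, and log2 12.11 without OPC replicate 2, and Nefl was log2 8.88. The lower members were Nes, Vim, Lmnb1 and Lmnb2. Nes, an intermediate filament of precursor cells, stood at 445, 772 and 590.3 CPM in OPC and 52.2, 9.33 and 27.9 CPM in DRG neurons (log2 −4.34, SE 0.61, adjusted p = 0.000283, and log2 −5.02 without DRG replicate 1). Vim, vimentin, the most abundant of the 4, stood at 1134, 2029 and 2111 CPM in OPC and 608, 399 and 543 CPM in DRG neurons (log2 −1.77, SE 0.30, adjusted p = 0.000899). Lmnb1, a B-type nuclear lamin, stood at 598, 900.5 and 799.7 CPM in OPC and 10.3, 8.38 and 6.71 CPM in DRG neurons (log2 −6.50, SE 0.67, adjusted p = 5.11e-05), and Lmnb2 was log2 −2.35. Lmna, an A-type lamin, was higher at log2 3.26. Of 34 actin and actomyosin genes, 11 were higher and 11 lower (7 lower without OPC replicate 3), 32.4% each, near the shares of all genes tested. Actb was lower (log2 −1.55), as were Cfl1 (log2 −1.44), Marcks (log2 −3.13) and Marcksl1 (log2 −3.87, and log2 −6.08 without DRG replicate 1), while Actg1 was log2 0.01 (adjusted p = 0.97).

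**Figure D4:**
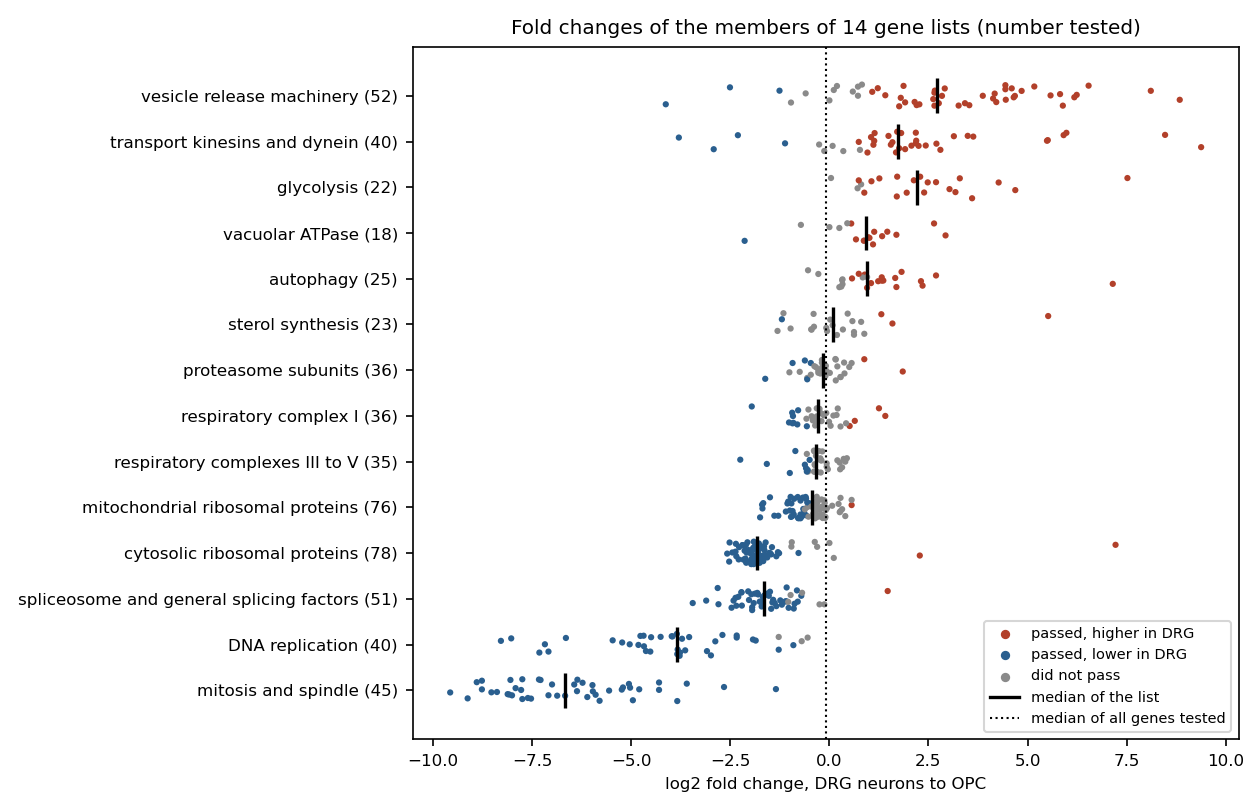
Log2 fold change of each tested member of 14 gene lists, with list medians as bars and the median of all genes tested dotted; red and blue points passed the test and grey ones did not. Most cytosolic ribosomal and splicing genes lie in a narrow band below 0, mitosis genes spread far below it, and proteasome, respiratory and sterol genes lie around 0.

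Most genes of electrical excitability were higher. Of 14 sodium channel subunits, 11 were higher and none lower, and of 40 potassium and hyperpolarization-activated channels 27 were higher and 8 lower. Scn1a, a channel of large sensory neurons and of brain, stood at 143, 286 and 261 CPM in DRG neurons and 9.26, 23.3 and 4.88 in OPC (log2 4.20, SE 0.74, adjusted p = 0.00102, and log2 5.01 without OPC replicate 2). Scn7a stood at 670.2, 733 and 706 CPM in DRG neurons and 0.201, 5.47 and 2.55 in OPC (log2 8.0, and log2 8.99 without OPC replicate 2). OPC replicate 2 was the highest OPC library for both. Scn2a (log2 0.81) and Scn3a (log2 −0.54) were among the sodium channel genes that did not pass, and Scn2a passed as higher without OPC replicate 2 (log2 1.31, adjusted p = 0.0343).

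Among potassium channels, Kcna1, of the juxtaparanodal axon, stood at 401, 886 and 829.9 CPM in DRG neurons and 3.49, 4.07 and 1.30 in OPC (log2 7.90, SE 0.77, adjusted p = 3.67e-05). Kcnd1 stood at 92.2, 227 and 239 CPM in DRG neurons and 0.715, 1.08 and 0.385 in OPC (log2 7.99, SE 0.56, adjusted p = 7.87e-06). The related Kcnd2 and Kcnd3 were lower, Kcnd3 at 47.9, 72.2 and 70.04 CPM in DRG neurons and 323, 359.9 and 248 in OPC (log2 −2.29, SE 0.22, adjusted p = 3.57e-05). Kcnd2 stood at 5.41, 2.04 and 0.878 CPM in DRG neurons and 162, 97.6 and 58.6 in OPC (log2 −5.27, SE 0.72, adjusted p = 0.000249, and log2 −6.17 without DRG replicate 1). The A-type potassium channel genes thus lay on opposite sides in the 2 cell types. Kcnj10, the inward rectifier known for potassium buffering by glia, stood at 233, 77.8 and 76.2 CPM in OPC and 4.13, 2.32 and 7.59 CPM in DRG neurons (log2 −4.79, SE 0.61, adjusted p = 0.00016, and log2 −4.05 without OPC replicate 1).

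Channels that turn a stimulus into current were higher in 18 of 23. Piezo2, the touch channel, stood at 1086, 1758 and 1646 CPM in DRG neurons and 23.8, 10.5 and 10.3 in OPC (log2 6.65, SE 0.68, adjusted p = 4.66e-05). Asic3, an acid-sensing channel, stood at 501, 199 and 232 CPM in DRG neurons and 0.402, 0.285 and 0.168 in OPC (log2 10.07, SE 0.55, adjusted p = 2.68e-06). Piezo1 (log2 −1.78) and Trpv4 (log2 −2.04) were the 2 lower members, and their calls were lost without DRG replicate 2 or OPC replicate 3, for Piezo1 also without DRG replicate 3 or OPC replicate 2, and for Trpv4 also without DRG replicate 1. The highest adjusted p came without OPC replicate 3, for Piezo1 (log2 −1.44, adjusted p = 0.074) and for Trpv4 (log2 −1.47, adjusted p = 0.1). The groups overlapped for Piezo1, at 18.2, 10.3 and 8.39 CPM in DRG neurons and 17.5, 61.2 and 47.6 in OPC. Of 31 ionotropic transmitter receptor genes, 13 were higher and 5 lower, and the split ran through the families. Among nicotinic receptors, Chrnb2 stood at 193, 184 and 183 CPM in DRG neurons and 7.96, 7.75 and 7.22 in OPC (log2 4.61, SE 0.20, adjusted p = 1.45e-06). Chrna7 stood at 68.9, 94.1 and 234 CPM in DRG neurons and 7.78, 8.69 and 6.18 in OPC (log2 4.13, SE 0.52, adjusted p = 0.000157, and log2 3.43 without DRG replicate 3). Chrna4 stood at 262, 144 and 167 CPM in OPC and 6.16, 3.96 and 5.99 CPM in DRG neurons (log2 −5.15, SE 0.35, adjusted p = 6.73e-06). The kainate receptor Grik3 stood at 456, 310.2 and 300.4 CPM in OPC and 3.55, 3.68 and 6.48 CPM in DRG neurons (log2 −6.28, SE 0.34, adjusted p = 2.68e-06). Of 11 calcium channel subunits, 7 were higher, as in Cacna1b, the presynaptic N-type channel (log2 3.82), and 3 lower, as in the T-type Cacna1i (log2 −3.21).

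The sodium pump differed by subunit. Atp1b1, a beta subunit, stood at 2971, 3289 and 2580.1 CPM in DRG neurons and 42.7, 73.7 and 77.3 in OPC (log2 5.51, SE 0.33, adjusted p = 3.63e-06). The glial beta subunit Atp1b2 stood at 375, 189 and 297 CPM in OPC and 11.9, 4.63 and 5.37 CPM in DRG neurons (log2 −5.30, SE 0.45, adjusted p = 1.89e-05). The small regulators followed the same division, with Fxyd7 at 497, 430.1 and 528 CPM in DRG neurons and 0.313, 1.34 and 0.842 in OPC (log2 9.17, SE 0.65, adjusted p = 7.97e-06). Fxyd6 stood at 2.61, 0.316 and 0.310 CPM in DRG neurons and 302, 337 and 448 in OPC (log2 −8.46, SE 0.91, adjusted p = 6.33e-05, and log2 −10.16 without DRG replicate 1). The beta subunits and the small regulators thus each had a member on either side. Of the plasma membrane calcium pumps, Atp2b3 was log2 5.13 and Atp2b1 log2 2.11, both higher.

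Most genes of secretion were higher. Of 52 genes of vesicle release, 40 were higher and 3 lower, with a median log2 of 2.71. Syt2, a fast calcium sensor, stood at 284, 574 and 511 CPM in DRG neurons and 0.581, 1.77 and 0.602 in OPC (log2 8.84, SE 0.86, adjusted p = 3.53e-05, and log2 9.58 without OPC replicate 2). Cplx1, complexin 1, which clamps the release machinery, stood at 1909.6, 915 and 852 CPM in DRG neurons and 54.9, 73.98 and 69.3 in OPC (log2 4.21, SE 0.81, adjusted p = 0.00178). Napb, a neuronal partner in disassembling that machinery, stood at 556, 782 and 759 CPM in DRG neurons and 12.2, 11.2 and 4.33 in OPC (log2 6.24, SE 0.43, adjusted p = 7.14e-06). Vamp3, the cellubrevin of constitutive and endosomal fusion, was lower, at 20.2, 11.03 and 14.6 CPM in DRG neurons and 284, 251 and 268 in OPC (log2 −4.13, SE 0.28, adjusted p = 6.74e-06), while the synaptic Vamp2 was higher (log2 2.66). The other 2 lower members, Dnm2 and Dnajc5, have more than 1 accession.

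Of 19 neuropeptides and granins, 16 were higher and none lower. Scg2, secretogranin 2, stood at 879.8, 679 and 534 CPM in DRG neurons and 1.12, 1.18 and 1.30 in OPC (log2 9.18, SE 0.92, adjusted p = 4.19e-05). Vgf stood at 277, 472 and 337 CPM in DRG neurons and 6.73, 18.97 and 21.6 in OPC (log2 4.52, SE 0.83, adjusted p = 0.00135). Of the peptides themselves, Tac1, the substance P precursor, stood at 165, 136 and 298 CPM in DRG neurons and 0.313, 0.916 and 0.818 in OPC (log2 8.18, SE 1.00, adjusted p = 0.00013). Adcyap1, the PACAP precursor, stood at 91.03, 28.7 and 47.8 CPM in DRG neurons and 0.0224, 0.0611 and 0 in OPC (log2 10.76, and log2 11.90 without OPC replicate 2). Of 10 peptide processing genes, 5 were higher, as in the convertases Pcsk1 at 83.8, 92.8 and 77.7 CPM in DRG neurons and 0.0224, 0.285 and 0.0481 in OPC (log2 9.40, and log2 11.12 without OPC replicate 2). Pcsk2 stood at 271, 277 and 268 CPM in DRG neurons and 20.7, 16.6 and 15.5 in OPC (log2 3.95, SE 0.40, adjusted p = 4.62e-05), and 3 were lower, as in Qpct (log2 −1.32).

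Of 21 genes of transmitter synthesis and transport, 7 were higher and 9 lower. The vesicular glutamate transporters Slc17a6 and Slc17a7 stood at 531, 999 and 724 CPM in DRG neurons and 0.0224, 0.590 and 0.217 in OPC for Slc17a6 (log2 11.36, and log2 12.60 without OPC replicate 2) and 289, 293 and 204 CPM in DRG neurons and 0.112, 0.346 and 0.337 in OPC for Slc17a7 (log2 9.93, SE 0.61, adjusted p = 4.41e-06). The glutamate uptake transporter Slc1a3, known from glia, was lower, at 631, 923 and 827 CPM in OPC and 3.59, 0.821 and 2.66 CPM in DRG neurons (log2 −8.41, SE 0.57, adjusted p = 6.83e-06). The GABA transporter Slc6a11 and the GABA-synthesizing enzyme Gad1 were lower. Gad1 stood at 61.9, 30.4 and 50.8 CPM in OPC and 0.372, 1.83 and 0.103 CPM in DRG neurons (log2 −5.91, SE 0.97, adjusted p = 0.000691, and log2 −7.68 without DRG replicate 2). Slc6a11 was log2 −6.54, and log2 −5.64 without OPC replicate 1.

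Most lists of growth factor and developmental signalling had more genes lower than higher. Of 24 receptor tyrosine kinases, 10 were lower and 6 higher. The ERBB family split, with Erbb4, a neuregulin receptor, at 38.1, 24.7 and 10.5 CPM in OPC and 0.0338, 0.105 and 0.103 CPM in DRG neurons (log2 −8.13, SE 0.64, adjusted p = 1.30e-05). Erbb3, the neuregulin receptor of Schwann cells and their precursors, stood at 4.03, 3.22 and 8.34 CPM in DRG neurons and 1.97, 0.468 and 0.385 in OPC (log2 2.46, SE 0.70, adjusted p = 0.0129). Erbb3 did not pass without DRG replicate 3 (log2 1.94, adjusted p = 0.0508) or OPC replicate 2 (log2 2.13, adjusted p = 0.0508), and was log2 3.59 without OPC replicate 1. Of 23 feedback regulators and targets of the ERK pathway, 13 were lower and 2 higher (1 higher when any of 4 libraries was left out). Spry1, a feedback inhibitor, stood at 163, 190.3 and 204 CPM in OPC and 4.13, 2.29 and 1.76 CPM in DRG neurons (log2 −6.10, SE 0.75, adjusted p = 0.000131), Etv4, an ETS factor, at 127, 164 and 209.7 CPM in OPC and 8.39, 9.73 and 7.72 CPM in DRG neurons (log2 −4.28, SE 0.48, adjusted p = 8.22e-05), and the phosphatase Dusp6 at 148, 199.6 and 223 CPM in OPC and 23.3, 35.2 and 33.4 CPM in DRG neurons (log2 −2.63, SE 0.26, adjusted p = 4.00e-05). Etv5, a close relative of Etv4, did not pass (log2 −0.16, adjusted p = 0.796).

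Ngfr, the shared neurotrophin receptor that sensory neurons, Schwann cells and satellite glia carry, stood at 2895, 7945 and 6757 CPM in DRG neurons and 1.05, 9.04 and 4.16 in OPC (log2 10.27, SE 1.58, adjusted p = 0.000481, and log2 11.13 without OPC replicate 2), with DRG replicate 1 the lowest of the DRG libraries. Of 12 genes of the neurotrophin and GDNF families, 6 were higher and 4 lower, with Gfra2, the neurturin receptor, at 5.77, 12.5 and 7.92 CPM in OPC and 0.609, 0.400 and 0.749 CPM in DRG neurons (log2 −3.90, SE 0.46, adjusted p = 0.000103) and the sorting receptor Sorcs1 at 50.7, 50.5 and 28.3 CPM in OPC and 3.45, 1.47 and 4.34 CPM in DRG neurons (log2 −3.81, SE 0.43, adjusted p = 8.08e-05).

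Of 24 Notch pathway genes, 14 were lower and 3 higher. The ligands split: Dll1 stood at 121, 70.2 and 64.2 CPM in OPC and 0.338, 0.337 and 0.387 CPM in DRG neurons (log2 −7.90, SE 0.37, adjusted p = 1.64e-06). Dll3 stood at 214, 184 and 265 CPM in OPC and 3.15, 1.16 and 0.620 CPM in DRG neurons (log2 −7.10, SE 0.60, adjusted p = 1.85e-05, and log2 −7.94 without DRG replicate 1). Jag2 stood at 87.4, 98.5 and 88.8 CPM in DRG neurons and 7.51, 10.8 and 8.54 in OPC (log2 3.35, SE 0.51, adjusted p = 0.000428). The receptor Notch1 stood at 374, 261 and 249 CPM in OPC and 7.58, 4.08 and 9.37 CPM in DRG neurons (log2 −5.39, SE 0.37, adjusted p = 7.31e-06). Numbl, an inhibitor of the pathway, stood at 221, 198 and 183 CPM in DRG neurons and 23.8, 21.7 and 29.2 in OPC (log2 3.01, SE 0.23, adjusted p = 1.25e-05). Of the target factors, Hes5 was lower (log2 −6.03, log2 −4.80 without OPC replicate 1 and log2 −6.63 without DRG replicate 1), and Hey1 (log2 0.58, adjusted p = 0.188) and Hes1 (log2 0.52, adjusted p = 0.165) did not pass, though Hes1 passed as higher without OPC replicate 3 (log2 1.06, adjusted p = 0.0162).

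Of 40 Wnt pathway genes, 23 were lower and 5 higher (3 higher without DRG replicate 2 or 3 or OPC replicate 2). Axin2, a negative regulator that is itself a Wnt target, stood at 31.9, 50.9 and 47.3 CPM in OPC and 3.38, 2.61 and 2.76 CPM in DRG neurons (log2 −3.89, SE 0.25, adjusted p = 5.34e-06), the ligand Wnt7a at 55.6, 50.98 and 67.3 CPM in OPC and 0.914, 0.653 and 0.774 CPM in DRG neurons (log2 −6.22, SE 0.33, adjusted p = 2.56e-06) and the receptor Fzd9 at 42.6, 28.4 and 51.6 CPM in OPC and 1.79, 1.77 and 0.645 CPM in DRG neurons (log2 −4.86, SE 0.69, adjusted p = 0.000301). Dkk3, of the dickkopf family, was higher at log2 3.51, and at log2 2.51 without DRG replicate 1. Of 12 Hedgehog genes, 7 were lower, among them the transducer Smo at 106, 78.5 and 102 CPM in OPC and 4.50, 1.83 and 5.34 CPM in DRG neurons (log2 −4.62, SE 0.38, adjusted p = 1.55e-05) and the co-receptors Gas1 (log2 −6.77) and Cdon (log2 −3.49), while the related Boc was higher (log2 2.81). Of 35 BMP and TGF-beta genes, 11 were higher and 11 lower, 31.4% each, near the shares of all genes tested. Ligands lay on both sides: Tgfb3 stood at 44.1, 49.03 and 57.1 CPM in DRG neurons and 1.32, 1.40 and 0.794 in OPC (log2 5.41, SE 0.30, adjusted p = 2.82e-06). Bmp7 stood at 202, 202 and 193 CPM in OPC and 2.61, 3.64 and 2.30 CPM in DRG neurons (log2 −6.12, SE 0.27, adjusted p = 1.37e-06).

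Of 43 genes of G protein and cyclic nucleotide signalling, 19 were higher and 11 lower. Rgs4, a brake on G protein signals, stood at 620.03, 1321 and 1303 CPM in DRG neurons and 0.402, 0.997 and 0.457 in OPC (log2 10.75, SE 0.75, adjusted p = 7.74e-06). Gamma subunits differed by member, with Gng3 at 795, 632 and 602 CPM in DRG neurons and 49.8, 104 and 95.2 in OPC (log2 3.03, SE 0.43, adjusted p = 0.000298). Gng5 stood at 20.4, 21.8 and 23.8 CPM in DRG neurons and 111, 90.8 and 148 in OPC (log2 −2.40, SE 0.22, adjusted p = 2.38e-05). Of 32 calcium and lipid kinase genes, 16 were higher and 5 lower (3 lower without OPC replicate 3), and protein kinase C showed the same kind of split: Prkcd stood at 298, 254 and 248 CPM in DRG neurons and 0.917, 3.52 and 6.33 in OPC (log2 6.22, SE 0.65, adjusted p = 5.47e-05, and log2 7.14 without OPC replicate 3), Prkce at 397, 478 and 411 CPM in DRG neurons and 58.2, 44.7 and 37.2 in OPC (log2 3.20, SE 0.23, adjusted p = 8.27e-06). Prkcb stood at 1049.8, 835 and 466 CPM in OPC and 71.5, 69.2 and 46.4 CPM in DRG neurons (log2 −3.65, SE 0.60, adjusted p = 0.000679). Ppp3ca, the catalytic subunit of calcineurin, was higher (log2 3.27).

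Among the metabolic lists, glycolysis had the largest share of genes called in 1 direction: 19 of 22 genes were higher and none lower, with a median log2 of 2.21. Slc2a3, the neuronal glucose transporter, stood at 409.6, 525 and 440.3 CPM in DRG neurons and 54.7, 51.9 and 62.03 in OPC (log2 3.03, SE 0.31, adjusted p = 4.48e-05). Slc2a1 stood at 176, 428 and 145 CPM in DRG neurons and 29.4, 20.6 and 26.7 in OPC (log2 3.29, SE 0.48, adjusted p = 0.000372, and log2 2.65 without DRG replicate 2). Eno2, the neuronal enolase, stood at 2003, 2338 and 1738 CPM in DRG neurons and 10.2, 11.7 and 11.1 in OPC (log2 7.52, SE 0.36, adjusted p = 1.64e-06), while Eno1 was log2 0.04 (adjusted p = 0.913). Pgam1, phosphoglycerate mutase, stood at 1280.3, 1941 and 1324 CPM in DRG neurons and 569.9, 584 and 748 in OPC (log2 1.26, SE 0.24, adjusted p = 0.00173). Genes of uptake and of the later steps were thus both higher. Gapdh (log2 0.80, adjusted p = 0.0726) and Ldhb (log2 0.71, adjusted p = 0.162) did not pass. Gapdh passed as higher without DRG replicate 1 (log2 1.0, adjusted p = 0.0435) or OPC replicate 3 (log2 1.39, adjusted p = 0.0112).

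Few respiratory genes passed by comparison. Of 36 complex I genes, 9 were lower and 4 higher, and of 35 genes of complexes III to V 9 and none, with medians of −0.29 and −0.34. Without OPC replicate 3 these counts became 5 and 9, and 3 and 6, so no direction is given for them. Of 28 genes of the tricarboxylic acid cycle, 10 were higher and 5 lower (8 and 9 with library size alone). The succinyl-CoA synthetases divided, with the ATP-forming Sucla2 at 342, 366 and 391 CPM in DRG neurons and 127, 129 and 75.2 in OPC (log2 1.73, SE 0.22, adjusted p = 0.000152) and the GTP-forming Suclg2 at 24.1, 12.9 and 6.45 CPM in DRG neurons and 127, 103 and 105 in OPC (log2 −2.95, SE 0.44, adjusted p = 0.000394). Idh2, the mitochondrial NADP enzyme, was lower, at 19.9, 19.7 and 17.3 CPM in DRG neurons and 134, 150.4 and 210.2 in OPC (log2 −3.12, SE 0.30, adjusted p = 3.33e-05). Pdk1, which restrains pyruvate entry, was higher (log2 2.77).

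Fatty acid genes differed step by step. Cpt1a, which brings fatty acids into mitochondria, stood at 264, 389.9 and 473 CPM in DRG neurons and 10.04, 27.01 and 27.2 in OPC (log2 4.13, SE 0.41, adjusted p = 4.25e-05), and the chain-length dehydrogenases Acadl (log2 2.23), Acadm (log2 1.88) and Acadvl (log2 1.74) were higher. The short-chain Acads (log2 −1.21), Echs1 (log2 −1.06) and Eci1 (log2 −1.68) were lower. Over the 18 oxidation genes, 8 were higher and 5 lower (3 lower without OPC replicate 3, and 6 of each with library size alone). Of 23 genes of synthesis and desaturation, 9 were higher and 5 lower (3 lower without DRG replicate 1 or 3 or OPC replicate 1): Scd1, a desaturase, stood at 667, 4059 and 3179 CPM in DRG neurons and 434, 479 and 426 in OPC (log2 2.56, SE 0.54, adjusted p = 0.00282), with DRG replicate 1 near the OPC level, Fads3 was log2 4.08, and Fads1 (log2 −1.34) and Elovl2 (log2 −3.84, and log2 −5.80 without DRG replicate 1), which act on polyunsaturated chains, were lower. Few sterol synthesis genes passed: 3 of 23 were higher and 1, Srebf2 (log2 −1.20), lower (2 and 3 with library size alone), and DRG replicate 1 had the lowest sum of the DRG libraries, 3576, 8369.5 and 6359 CPM in DRG neurons and 6606, 7203 and 6696 in OPC. Without DRG replicate 1 the list had 5 higher. Without DRG replicate 2, 1 was higher and 3 lower, and without OPC replicate 1 or 2, 1 was higher. Of the 16 sterol genes with a promoter in the table, 15 held a CCAAT match (93.8%) and 1 the sterol response element TCACNCCAC, against 39.9% and 1.24% of all genes.

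Serine, glycine and one-carbon genes were lower in 10 of 18 cases. Phgdh, the entry enzyme of serine synthesis, stood at 636, 691 and 1112 CPM in OPC and 137, 87.6 and 70.6 CPM in DRG neurons (log2 −3.05, SE 0.34, adjusted p = 7.74e-05). Gldc, of the glycine cleavage system, stood at 119, 165 and 173 CPM in OPC and 1.29, 0.947 and 1.21 CPM in DRG neurons (log2 −7.05, SE 0.26, adjusted p = 1.13e-06). Shmt1 stood at 42.5, 88.8 and 75.02 CPM in OPC and 0.711, 0.695 and 0.413 CPM in DRG neurons (log2 −6.82, SE 0.49, adjusted p = 8.91e-06). Of 21 nucleotide synthesis genes, 13 were lower, as in Pfas (log2 −2.79) of purine synthesis. The IMP dehydrogenases split, with Impdh2 at 287, 339 and 375 CPM in OPC and 81.5, 92.7 and 87.6 CPM in DRG neurons (log2 −1.94, SE 0.16, adjusted p = 1.61e-05). Impdh1 stood at 456, 616 and 509.7 CPM in DRG neurons and 96.6, 131 and 147 in OPC (log2 2.08, SE 0.22, adjusted p = 5.90e-05). The salvage enzymes Hprt (log2 1.77) and Aprt (log2 0.77) were higher. Of 28 redox genes, 8 were higher (28.6%, near the 28.4% of all genes) and 2 lower (7.14%, against 31.1%). These counts were 12 and 2 without OPC replicate 3 and 7 and 4 with library size alone. Gclm, for glutathione synthesis (log2 2.12), and catalase, Cat (log2 1.28), were on one side and Prdx4 (log2 −2.24) on the other. In lipid transport, the exporters Abca1 (log2 3.39) and Abcg1 (log2 2.94, log2 2.74, adjusted p = 0.0567 without OPC replicate 2) were higher, and the receptor Lrp1 (log2 −2.84) and the cholesterol exporter of lysosomes Npc1 (log2 −2.82) were lower. Abca was also 1 of the symbol families with the largest share higher, 10 of 13.

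Genes that fold and degrade proteins were mixed by pathway. Of 36 proteasome subunits, 2 were higher and 5 lower with a median log2 of −0.17, and without OPC replicate 3 they were 8 and 1 (with DESeq2 size factors, 4 and 2). Of 25 autophagy genes, 16 were higher and none lower, with Sqstm1, the p62 adaptor, at 196, 205 and 229 CPM in DRG neurons and 34.7, 37.9 and 54.3 in OPC (log2 2.31, SE 0.21, adjusted p = 2.67e-05). Gabarapl1, a neuronal ATG8 protein, stood at 806, 969.9 and 1135 CPM in DRG neurons and 179, 159 and 231 in OPC (log2 2.35, SE 0.27, adjusted p = 8.47e-05). The sister gene Gabarap was log2 −0.54 and passed as lower without OPC replicate 2 (log2 −0.78, adjusted p = 0.0046). Of 18 subunits of the vacuolar ATPase, which acidifies lysosomes and synaptic vesicles, 12 were higher and 1 lower (2 without DRG replicate 3). The brain-enriched Atp6v1g2 stood at 241, 182 and 188 CPM in DRG neurons and 34.3, 20.01 and 25.8 in OPC (log2 2.93, SE 0.25, adjusted p = 1.74e-05), and Atp6v0e was the lower one, at 18.5, 21.5 and 28.1 CPM in DRG neurons and 119.98, 70.6 and 109 in OPC (log2 −2.14, SE 0.24, adjusted p = 8.70e-05). Of 35 lysosomal genes, 9 were higher and 7 lower, 8 and 9 with library size alone, and 14 and 5 without OPC replicate 3, the library with the most microglial RNA. Cathepsins L and B were higher, Ctsl at 1139.5, 1641 and 1477 CPM in DRG neurons and 166, 157 and 416 in OPC (log2 2.52, SE 0.38, adjusted p = 0.00041, and log2 3.38 without OPC replicate 3). Ctsb stood at 2168, 3425 and 4168 CPM in DRG neurons and 469.99, 573 and 1229.7 in OPC (log2 2.10, SE 0.50, adjusted p = 0.00573, and log2 2.88 without OPC replicate 3). OPC replicate 3 had the highest level of both in OPC. The part of microglia in these lysosomal values was not tested.

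Of 36 chaperones and heat shock proteins, 14 were higher and 8 lower (4 lower without OPC replicate 3, and 5 without any other library but OPC replicate 1). Hspb1, which binds intermediate filaments and unfolding proteins, stood at 211, 145 and 182 CPM in DRG neurons and 0.0671, 0.163 and 0.0962 in OPC (log2 10.63, SE 0.83, adjusted p = 1.29e-05). Hspb8 stood at 334, 366 and 387 CPM in DRG neurons and 1.63, 1.89 and 2.31 in OPC (log2 7.54, SE 0.32, adjusted p = 1.27e-06). Bag3, the co-chaperone that joins it, stood at 555, 549 and 592 CPM in DRG neurons and 2.12, 4.13 and 4.72 in OPC (log2 7.27, SE 0.39, adjusted p = 2.63e-06). Hspa12a stood at 1347, 1290.1 and 1485 CPM in DRG neurons and 4.34, 14.1 and 6.42 in OPC (log2 7.37, and log2 7.99 without OPC replicate 2). Cryab, another small heat shock protein, was lower, at log2 −2.63. Of the chaperonin ring, Cct4 was lower (log2 −0.81) and Cct8 did not pass (log2 −0.10, adjusted p = 0.676). Of 20 genes of endoplasmic reticulum load, 7 were lower and 1 higher (3 higher without DRG replicate 1 or OPC replicate 3), with Creld2 at 33.3, 52.98 and 61.4 CPM in OPC and 8.05, 5.85 and 6.84 CPM in DRG neurons (log2 −2.83, SE 0.27, adjusted p = 3.03e-05). The 14-3-3 proteins divided: Ywhag stood at 4001, 5315 and 6161 CPM in DRG neurons and 339.6, 399 and 466 in OPC (log2 3.68, SE 0.29, adjusted p = 1.29e-05), Ywhah at 2704, 2786 and 2798 CPM in DRG neurons and 247, 272 and 282 in OPC (log2 3.37, SE 0.26, adjusted p = 1.23e-05). Ywhae stood at 1033, 941 and 926 CPM in DRG neurons and 1910.2, 1848 and 1893 in OPC (log2 −0.96, SE 0.16, adjusted p = 0.000711). Of 45 ubiquitin-related genes, 16 were higher and 7 lower, as in Fbxo2 (log2 5.45) and Rnf157 (log2 2.69) on one side and Usp11 (log2 −2.58, and log2 −3.45 without DRG replicate 1) on the other, and 4 were lower without DRG replicate 1 or OPC replicates 2 or 3.

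The matrix differed in kind. Of 19 chondroitin sulfate proteoglycan, tenascin and synthesis genes, 14 were lower and 2 higher. Cspg4, the NG2 proteoglycan by which OPC are often identified, stood at 1402, 882 and 979.9 CPM in OPC and 6.43, 2.48 and 7.13 CPM in DRG neurons (log2 −7.67, SE 0.64, adjusted p = 1.70e-05). Xylt1, which starts the sugar chains, stood at 206, 253 and 229.9 CPM in OPC and 0.508, 0.547 and 0.594 CPM in DRG neurons (log2 −8.69, SE 0.67, adjusted p = 1.23e-05). Tnr, tenascin R, stood at 403, 313 and 129.5 CPM in OPC and 3.18, 3.56 and 3.23 CPM in DRG neurons (log2 −6.41, SE 0.60, adjusted p = 3.01e-05). The core protein, the start of its chains and a tenascin were thus all lower. The 2 higher were Hapln4 (log2 3.80) and Chpf (log2 1.38), and Chpf did not pass without DRG replicate 2 or 3 or OPC replicate 1 or 2, with the highest adjusted p without DRG replicate 2 (log2 1.16, adjusted p = 0.128). Of 21 heparan sulfate genes, 11 were lower and 7 higher (6 lower without DRG replicate 3 or OPC replicate 3, and 7 lower against 8 higher with DESeq2 size factors). The sulfating enzyme Ndst4 was higher (log2 5.86), and the syndecan Sdc3 was lower at 1367, 855 and 1129 CPM in OPC and 345, 218 and 225 CPM in DRG neurons (log2 −2.09, SE 0.35, adjusted p = 0.000845).

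Of 35 collagens and fibrillar matrix genes, 21 were higher and 5 lower. Col1a2, of type I collagen, stood at 143, 72.7 and 141 CPM in DRG neurons and 0.291, 0.183 and 0.457 in OPC (log2 8.59, SE 1.04, adjusted p = 0.000125, and log2 9.21 without OPC replicate 3). Col6a2 stood at 71.1, 63.2 and 56.6 CPM in DRG neurons and 0.0671, 0.265 and 0.0481 in OPC (log2 8.90, and log2 10.02 without OPC replicate 2). Markers of fibroblasts and mural cells moved with them: 12 of the 14 tested were higher and 1 lower, and the list summed to 562, 255 and 513 CPM in DRG neurons and 29.98, 42.9 and 47.8 in OPC. Its most abundant members were Col1a1, Col1a2, Col3a1 and Acta2. Of its less abundant members, Pdgfrb, of mural cells, was near 0 in DRG neurons (0.0677, 0.0421 and 0.103 CPM) and had no counts in OPC. Dcn, decorin, of fibroblasts, was 3.82, 2.42 and 4.05 CPM in DRG neurons and had 1 count in OPC. Pdgfrb and Dcn kept only isoform-specific reads, so their levels are undercounted. Col1a1, Col1a2, Col3a1 and Postn belong to both lists. The part of such cells in the collagen values was not tested. Schwann and satellite glia markers gave 5 higher and 5 lower of 13 (3 higher without DRG replicate 3 or OPC replicate 2). Pmp22, a protein of peripheral myelin, stood at 182, 318 and 199 CPM in DRG neurons and 154, 274 and 271 in OPC and did not pass (log2 0.0, adjusted p = 1). Among 27 integrins and laminins, 11 were higher (40.7%) and 6 lower (22.2%), against 28.4% and 31.1% of all genes. Their median log2 was 0.07, and −0.08 with library size alone. The higher members were led by Itga7 at 237, 447 and 511 CPM in DRG neurons and 1.94, 2.44 and 2.65 in OPC (log2 7.41, SE 0.61, adjusted p = 1.55e-05). Itga3 stood at 143, 174 and 170.4 CPM in DRG neurons and 5.86, 1.81 and 2.72 in OPC (log2 5.55, SE 0.51, adjusted p = 2.66e-05, and log2 6.16 without OPC replicate 1).

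Of 33 matrix proteases and inhibitors, 11 were higher and 11 lower, 33.3% each, near the 28.4% and 31.1% of all genes tested. Members of the same family lay on both sides. Timp2 stood at 2088, 2804 and 3213 CPM in DRG neurons and 395, 316 and 435 in OPC (log2 2.82, SE 0.23, adjusted p = 1.57e-05). Timp4 stood at 89.4, 69.6 and 129 CPM in OPC and 0.102, 0.0842 and 0.0516 CPM in DRG neurons (log2 −10.21, SE 0.39, adjusted p = 1.26e-06). Serpini1, neuroserpin, stood at 444, 365 and 427 CPM in DRG neurons and 14.2, 11.9 and 6.57 in OPC (log2 5.24, SE 0.33, adjusted p = 4.72e-06). Serpine2 stood at 1626, 1023 and 1529 CPM in OPC and 66.8, 24.6 and 67.6 CPM in DRG neurons (log2 −4.72, SE 0.46, adjusted p = 3.50e-05). Adam22 (log2 2.75) and Adam23 (log2 4.13), catalytically inactive members that bind LGI proteins at the axon, were higher, and the metalloprotease Adam12 stood at 481, 799 and 677 CPM in OPC and 6.12, 2.67 and 4.67 CPM in DRG neurons (log2 −7.19, SE 1.07, adjusted p = 0.0004).

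Of 64 axon guidance genes, 25 were higher and 21 lower. The semaphorin receptors Nrp1 and Plxna4 stood at 593, 400.1 and 374 CPM in DRG neurons and 23.4, 35.1 and 28.5 in OPC for Nrp1 (log2 3.98, SE 0.25, adjusted p = 5.26e-06) and 531, 713 and 671 CPM in DRG neurons and 18.9, 19.99 and 16.96 in OPC for Plxna4 (log2 5.10, SE 0.23, adjusted p = 1.55e-06). Plxnb1, a plexin of the B class, was log2 −4.49, and log2 −5.13 without DRG replicate 1. Netrin and its receptor were both lower, Ntn1 at 159, 92.5 and 95.2 CPM in OPC and 0.947, 0.695 and 1.08 CPM in DRG neurons (log2 −6.99, SE 0.39, adjusted p = 3.00e-06). Dcc stood at 119, 67.999 and 35.3 CPM in OPC and 1.15, 0.421 and 0.413 CPM in DRG neurons (log2 −6.83, SE 0.78, adjusted p = 8.82e-05, and log2 −7.46 without DRG replicate 1). Sema5b stood at 158, 120.4 and 109 CPM in OPC and 0.237, 0.316 and 0.155 CPM in DRG neurons (log2 −9.06, SE 0.45, adjusted p = 2.05e-06). Slit1 stood at 225, 529 and 475 CPM in DRG neurons and 10.9, 29.4 and 25.96 in OPC (log2 4.21, SE 0.72, adjusted p = 0.0009). Of 52 adhesion genes, 16 were higher and 19 lower (20 and 18 with DESeq2 size factors), near the shares of all genes tested. The axonal L1cam (log2 9.17) and the paranodal Cntnap1 (log2 6.12) were higher, and Cdh20 stood at 80.7, 106 and 94.996 CPM in OPC and 0.677, 0.379 and 0.800 CPM in DRG neurons (log2 −7.26, SE 0.65, adjusted p = 2.35e-05). Lrrc4b stood at 344, 292 and 383 CPM in OPC and 25.3, 15.1 and 5.73 CPM in DRG neurons (log2 −4.47, SE 0.49, adjusted p = 6.81e-05).

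Transcription factor genes divided by body region. All 31 HOX genes tested were higher; HOX factors set position along the trunk and hindbrain and are not used in the forebrain. In all, 47828 counts fell on them in DRG neurons and 47 in OPC, where 18 had none and 10 had 1 to 3. Hoxb7 stood at 53.1, 44.1 and 36.5 CPM in DRG neurons and 0 in each OPC library, at least 1980-fold higher against a floor of 3 counts over the group. Hoxc10, a gene of lumbar levels, stood at 26.3, 17.6 and 32.01 CPM, at least 1110-fold higher. The fitted median log2 of the list was 10.16, which depends on how counts of 0 are handled, and 8.41 with the genes at 0 set to their bound. In the other direction, 40 of 48 forebrain and glial factors were lower. Pou3f3 stood at 187, 211 and 189 CPM in OPC and 0.102, 0.253 and 0.387 CPM in DRG neurons (log2 −9.57, SE 0.39, adjusted p = 1.26e-06), Emx2, of dorsal forebrain, at 23.9, 21.6 and 21.1 CPM in OPC and 0, 0.189 and 0.0516 CPM in DRG neurons (log2 −7.90, SE 0.67, adjusted p = 1.76e-05, and log2 −9.45 without DRG replicate 2). Gsx1, of the ventral forebrain, stood at 57.3, 114 and 113 CPM in OPC. Gsx1 had a single count in DRG neurons, a ratio of 11000-fold, with a 95% counting interval of 1970 to 434000. Of 30 sensory neuron factors, 24 were higher, as in Prdm12, required for pain-sensing neurons, at 474, 471 and 500.4 CPM in DRG neurons and 0, 0.285 and 0.144 in OPC (log2 11.66, and log2 12.68 without OPC replicate 2), Klf7 (log2 3.69). Onecut2 stood at 83.7, 114 and 133 CPM in DRG neurons and 2.28, 1.38 and 0.577 in OPC (log2 6.28, SE 0.63, adjusted p = 4.09e-05).

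RNA-binding regulators of neurons and glia, which include splicing factors, were on both sides, 16 higher and 13 lower of 38, and the sign of the list's median changed with the scaling. Srrm4, which promotes neuronal microexons, stood at 38.3, 48.3 and 30.4 CPM in DRG neurons and 1.52, 2.95 and 2.89 in OPC (log2 3.99, SE 0.45, adjusted p = 8.12e-05), and its relative Srrm3 at 59.1, 40.4 and 42.5 CPM in DRG neurons and 4.002, 5.17 and 4.28 in OPC (log2 3.40, SE 0.67, adjusted p = 0.00197). Rest, the repressor of neuronal genes, was lower, at 2.40, 2.02 and 2.61 CPM in DRG neurons and 28.3, 25.03 and 18.6 in OPC (log2 −3.35, SE 0.25, adjusted p = 1.16e-05). The Nova genes, splicing regulators known from central neurons, were lower in DRG neurons: Nova1 stood at 394, 215 and 139.9 CPM in OPC and 9.54, 9.77 and 7.77 CPM in DRG neurons (log2 −4.79, SE 0.38, adjusted p = 1.30e-05) and Nova2 was log2 −2.89. Of 19 immediate early genes, 8 were lower and 4 higher, with Nr4a1 at 55.7, 68.997 and 73.6 CPM in OPC and 4.06, 1.81 and 5.32 CPM in DRG neurons (log2 −4.15, SE 0.80, adjusted p = 0.0017), Jun at 365, 306 and 383 CPM in DRG neurons and 114, 149 and 179.7 in OPC (log2 1.25, SE 0.20, adjusted p = 0.000662). Atf3, known from injured sensory neurons, stood at 50.7, 139.6 and 36.6 CPM in DRG neurons and 2.55, 7.71 and 19.5 in OPC (log2 2.93, SE 0.81, adjusted p = 0.0117). Atf3 was log2 2.14 without DRG replicate 2 and log2 4.12 without OPC replicate 3. Of 25 interferon response and MHC class I genes, 9 were higher and 4 lower, and Oasl2 stood at 33.3, 119.7 and 105 CPM in DRG neurons and 0.179, 0.244 and 0.265 in OPC (log2 8.53, SE 1.19, adjusted p = 0.000275), with DRG replicate 1 the lowest of the DRG libraries, while Isg15 (log2 1.42, adjusted p = 0.0781) did not pass. Isg15 passed as higher without DRG replicate 2 (log2 1.81, adjusted p = 0.0355).

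The OPC libraries differed in how many oligodendrocyte genes they held. Gpr17, a receptor of committed precursors, was 786, 9.44 and 9.84 CPM in OPC replicates 1 to 3 and 0.135, 0.0632 and 0.0774 CPM in DRG neurons (log2 −11.54, SE 2.24, adjusted p = 0.00183, and log2 −6.72 without OPC replicate 1). Myrf, the factor that switches on myelin genes, was 63.8, 5.41 and 6.14 CPM in OPC and 23.01, 23.8 and 14.3 in DRG neurons. It did not pass with all libraries (log2 −0.30, adjusted p = 0.773) and passed as higher without OPC replicate 1 (log2 1.81, adjusted p = 0.0059). Myelin markers were lower in 7 of 11 and higher in 1 (3 without OPC replicate 1). OPC replicate 1 was also lowest of the OPC group in the summed replication genes given above. It was not lowest for the mitosis and spindle genes, which summed to 7175, 11023 and 6010 CPM in OPC, with replicate 3 the lowest.

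Across all genes, the rule for the largest differences, among genes with a mean of at least 20 CPM in the higher group and at least 10 counts in the lower group, took genes that included Sncg, Prdm12, Pirt, Ndrg4, Slc17a6, Trarg1, Snhg11, Nefh and Stmn2 on the higher side. On the lower side they included Olig2, Gpr17, Vxn, Gpr37l1, Olig1, Pbk, Kif18b, Pclaf and Cenpa. Sncg, gamma synuclein, a protein of peripheral axons, stood at 2000, 1429 and 1861 CPM in DRG neurons and 0, 0.957 and 0.289 in OPC (log2 12.02, and log2 13.57 without OPC replicate 2). Pirt, a regulator of sensory channels, stood at 1639, 2035 and 2269.5 CPM in DRG neurons and 0.0224, 1.55 and 0.385 in OPC (log2 11.54, and log2 13.24 without OPC replicate 2). Snhg11, a noncoding RNA, stood at 1219.8, 1090 and 1343 CPM in DRG neurons and 0.246, 1.12 and 0.217 in OPC (log2 11.14, and log2 12.33 without OPC replicate 2). OPC replicate 2 was the highest OPC library for all 3. Gpr37l1, a glial receptor, stood at 495, 159 and 231 CPM in OPC and 0.102, 0.126 and 0.103 CPM in DRG neurons (log2 −11.33, SE 0.64, adjusted p = 3.01e-06, and log2 −10.74 without OPC replicate 1). Vxn stood at 903, 522 and 412 CPM in OPC and 0.203, 0.316 and 0.0774 CPM in DRG neurons (log2 −11.53, SE 0.78, adjusted p = 6.98e-06, and log2 −12.12 without DRG replicate 2). Pclaf, the PCNA-associated factor of S phase, stood at 182, 325 and 259 CPM in OPC and 0.203, 0.358 and 0.207 CPM in DRG neurons (log2 −9.91, SE 0.97, adjusted p = 3.85e-05). Grouping all tested genes by the letters of their symbols, the families of at least 10 genes with the largest shares higher were Scn, Abca, Syt, Htr and Serpinb, and all 10 Mcm genes, 43 of 48 Rpl and 15 of 17 Sox genes were lower.

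Leaving out OPC replicate 3 changed the balance of higher and lower calls more than leaving out any other of the 9 libraries. Without it, 4717 genes were higher and 3742 lower, and the median log2 over all genes moved from −0.08 to 0.17. Of the 8834 calls, 7656 were kept in the same direction and none turned to the opposite direction, while 150 higher and 1028 lower calls ended and 515 and 137 genes became higher and lower. The lower calls that ended had a median transcript length of 2456 bases, against 2887 for all genes tested with a length. With the 6 compared libraries fitted alone and this library left out, an alternative chosen after seeing the data, 4418 were higher and 4190 lower and the median was 0.02. Among the lists, cell division, channels, vesicle release, glycolysis and HOX genes kept nearly the same counts: the mitosis list had 45 lower, vesicle release 41 higher and glycolysis 20 higher. The counts of the mitochondrial ribosome, respiratory chain and proteasome lists, given above, changed more, as did those of the microglia markers. Of the 20 aminoacyl-tRNA synthetases, 2 were higher and 6 lower with all libraries, and 6 and 3 without OPC replicate 3.

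**Figure D5:**
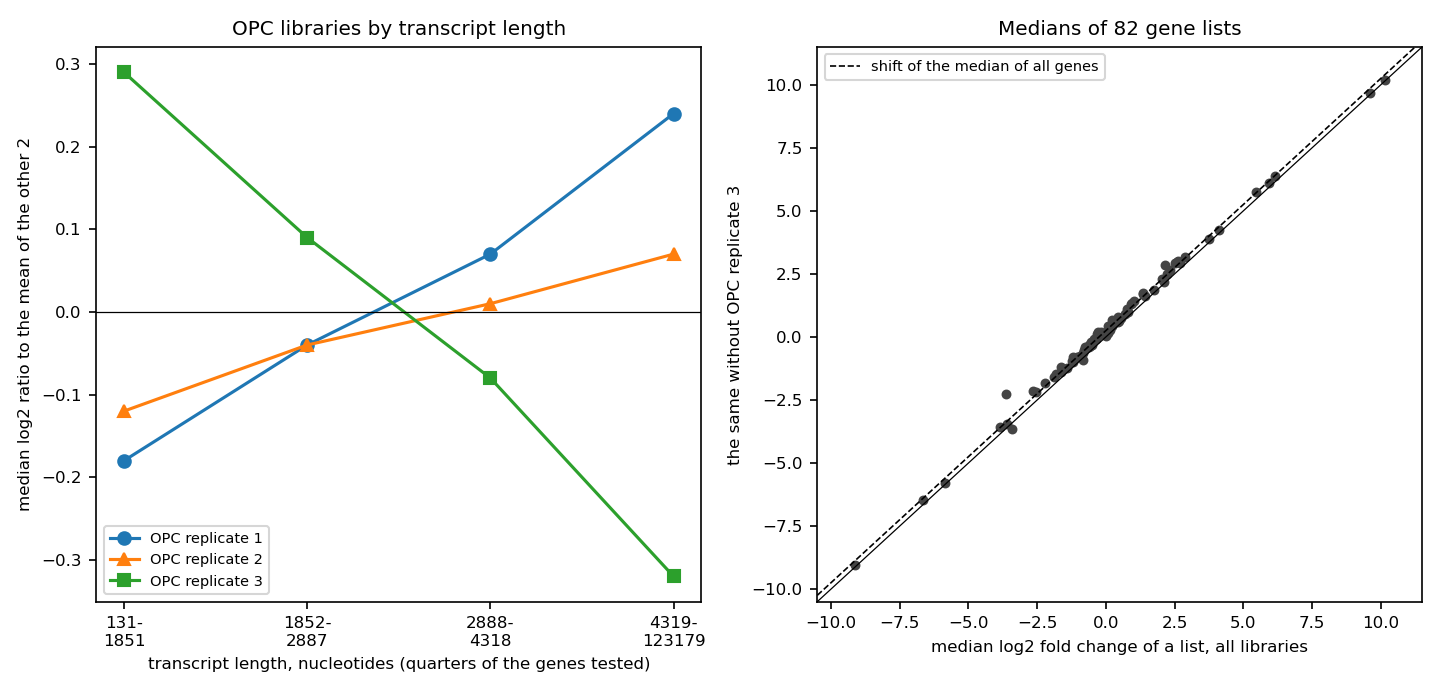
Left, median log2 ratio of each OPC library to the mean of the other 2 in 4 groups of genes by transcript length; right, median log2 fold change of 82 gene lists with and without OPC replicate 3. OPC replicate 3 falls from 0.29 to −0.32 across the length groups, and most list medians are a little higher without it.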

How the data were processed

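Poly(A) RNA was sequenced from 9 libraries with a stranded TruSeq mRNA kit, per the labels' protocols. Reads were aligned to mm10 with TopHat2 and counted with HTSeq, per the submitters' processing notes (not given in the sources used here: versions, strand setting and overlap mode). The authors deposited raw counts per RefSeq transcript accession. Of 33787 accessions, 32417 were named from RefSeq GRCm38.p6 and 187 from GENCODE, and 1183 kept their accession. Counts were summed per gene (25085 genes), and the 5 total rows of unassigned reads were dropped.

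edgeR 4.0.16 (R 4.3.3, limma 3.58.1) fitted all 9 libraries with TMM factors, 1 coefficient per cell type, a minimum count of 10 in filterByExpr and 6 residual degrees of freedom, by the quasi-likelihood test. Adjusted p-values are Benjamini-Hochberg over 14850 genes. DESeq2 1.42.0 was an alternative. The scripts were tested on simulated data with 200 changed genes. Replicates were described as separate experiments, but no animals are named, so the p-values measure the spread between these libraries.

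Genes were named by a rule, from each list the 4 largest differences in each direction, the 4 most abundant, the exceptions, and over all genes the 10 largest in each direction among genes with at least 20 CPM in the higher group and 10 counts in the lower, and 31 more were named after their values were seen. Some genes are not reported here. The comparison, lists and rule were chosen with earlier results of these data known. A gene with no counts in a group was compared with a floor of 3 counts over the group; floors and counting intervals (95%) cover counting error only. Promoter letters are from RefSeq, GRCm38.p6.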

Additional observations from a re-analysis of the deposited data

How the results depend on the processing

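Over all alternatives, the count of genes higher in DRG neurons lay between 3354 and 5155 and that of genes lower between 3706 and 5109, against 4217 and 4617 as reported, and no gene called as reported was called in the opposite direction in any of them. Leaving out 1 library at a time gave 3750 to 4717 higher and 3742 to 4880 lower. Without OPC replicate 3 and astrocyte replicate 1 they were 5155 and 4014. No low-count filter gave 4491 and 4637, a stricter one 3681 and 4188, the 6 compared libraries alone 4178 and 4467, genes with 1 accession 3354 and 3706 of 11605, and DESeq2 5032 and 4357. Removal of each library's trend with transcript length against its own group's mean gave 4271 and 4605. That step cannot remove a length trend between the groups. The median log2 of the shortest length group was −0.18 as reported, −0.17 with that step and 0.15 without OPC replicate 3. With DESeq2 size factors the counts were 4713 and 4047, and with library size alone 3880 and 5109. Among the named genes, Myrf was the 1 whose direction turned with a call on either side: it was log2 1.81 (adjusted p = 0.0059) without OPC replicate 1 and −0.30 as reported, and between −0.79 and 1.81 over the libraries left out.

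A replicate block gave 4179 higher and 4516 lower over 9 libraries and 4011 and 4198 over 6. The replicate numbers did not pair the samples: deviations from the group means correlated at 0.048, 0.016 and −0.0023 for the same-numbered pairs. Depth limits genes with few counts in a group, for which only bounds or wide ratios are given.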

Other observations

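Some gene classes outside the comparisons above also held single genes with large differences. Among 37 genes of histone acetylation, 16 were lower and 4 higher. Kat6a, an acetyltransferase, stood at 317, 345 and 218 CPM in OPC and 48.2, 23.98 and 27.8 CPM in DRG neurons (log2 −3.14, SE 0.30, adjusted p = 3.49e-05), and Hdac11, a deacetylase, at 174, 176 and 159 CPM in DRG neurons and 42.3, 24.1 and 35.2 in OPC (log2 2.33, SE 0.59, adjusted p = 0.00731). Among 19 genes of the Hippo pathway, 4 were higher (21.1%) and 7 lower (36.8%), not far from the 28.4% and 31.1% of all genes. With DESeq2 size factors 5 were higher and 5 lower, so no direction is given for this list. Ccn2, a matricellular protein and a common target of the pathway, stood at 160.3, 16.7 and 56.3 CPM in DRG neurons and 0.268, 0.407 and 0.505 in OPC (log2 7.62, SE 1.16, adjusted p = 0.000451, and log2 6.53 without DRG replicate 1), while Vgll4, which represses the TEAD factors, stood at 76.9, 53.1 and 78.2 CPM in OPC and 9.81, 9.96 and 9.71 CPM in DRG neurons (log2 −2.82, SE 0.21, adjusted p = 1.03e-05). Yap1 itself was under 1 CPM in both groups. In lipid handling, Clu, the lipoprotein clusterin, stood at 152, 174 and 142 CPM in DRG neurons and 3.89, 5.19 and 4.33 in OPC (log2 5.12, SE 0.41, adjusted p = 1.35e-05) and Lpl, lipoprotein lipase, at 20.3, 73.8 and 73.5 CPM in OPC and 11.7, 3.20 and 2.76 CPM in DRG neurons (log2 −3.25, SE 0.75, adjusted p = 0.00454, and log2 −4.23 without DRG replicate 1).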
